A study of Mus musculus with 16 samples.

Results

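Transcripts of 9 genes of blood coagulation and plasminogen activation were followed in mouse bone marrow derived macrophages (BMDMs). The genes were taken by symbol from the deposited table, and all 9 of 9 were present among its 22287 genes and among the 12514 genes that passed the expression filter. They were F3, F7, F10, F13a1, Thbd, Procr, Plau, Plaur and Serpinb2. The cells came from bone marrow of C57BL/6J mice aged 8 weeks and no group carried a genetic change. They were grown for 7 days with GM-CSF (GM) or M-CSF (M), 2 growth factors that both yield macrophages in culture. They were grown on tissue culture-treated polystyrene (TC), whose surface is modified to help cells attach, or on untreated polystyrene (noTC). Each culture was then left at steady state with vehicle or given LPS, a bacterial cell wall product, for 3 h. Groups are named by growth factor, dish and, where given, LPS, as in GM-TC or M-noTC-LPS, and each of the 8 had 2 libraries. The labels give replicate numbers but not the mouse behind each library, and p-values measure the spread between these libraries.

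Coagulation begins when tissue factor, encoded by F3, binds factor VII (F7) on a membrane, and this complex activates factor X (F10). Factor X activates thrombin, which makes fibrin, and factor XIII, whose A subunit is F13a1, crosslinks it. Thrombomodulin (Thbd) and the endothelial protein C receptor (Procr) are membrane proteins of the protein C pathway, which restrains clotting. Urokinase (Plau) turns plasminogen into plasmin, the protease that dissolves fibrin. The urokinase receptor (Plaur) holds urokinase at the cell surface, and Serpinb2 encodes PAI-2, a serpin that inhibits urokinase. Monocytes and macrophages are known for making tissue factor when they meet bacterial products, and also for urokinase and its receptor.

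RefSeq promoter windows, on build GRCm38.p6, were found for 7 of the 9 genes, and Thbd and Plau had no entry. Of the 5 genes that were higher upon LPS challenge in every kind of culture, the 4 whose window held a searched motif are shown, as the 250 bases before the start site, 5′ to 3′. The fifth, F10, held none. Capitals mark an AP-1 consensus (TGACTCA, searched on both strands, read as TGAGTCA where it lies on the other strand) or a TATA box (TATAAA, both strands). The F3 window is chr3:121723287-121723536, the Procr window chr2:155750967-155751216, the Plaur window chr7:24462233-24462482 and the Serpinb2 window, at the first of 2 listed starts, chr1:107511173-107511422. All 4 lie on the plus strand.
F3: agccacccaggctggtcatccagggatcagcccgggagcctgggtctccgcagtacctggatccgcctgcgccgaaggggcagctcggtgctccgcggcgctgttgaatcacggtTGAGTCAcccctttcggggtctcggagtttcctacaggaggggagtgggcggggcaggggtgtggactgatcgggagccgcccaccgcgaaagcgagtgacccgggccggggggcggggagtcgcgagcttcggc
Procr: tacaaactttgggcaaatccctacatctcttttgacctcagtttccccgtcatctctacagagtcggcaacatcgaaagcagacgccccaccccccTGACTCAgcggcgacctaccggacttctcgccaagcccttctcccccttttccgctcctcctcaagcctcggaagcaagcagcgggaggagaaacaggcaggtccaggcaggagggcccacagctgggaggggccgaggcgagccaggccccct
Plaur: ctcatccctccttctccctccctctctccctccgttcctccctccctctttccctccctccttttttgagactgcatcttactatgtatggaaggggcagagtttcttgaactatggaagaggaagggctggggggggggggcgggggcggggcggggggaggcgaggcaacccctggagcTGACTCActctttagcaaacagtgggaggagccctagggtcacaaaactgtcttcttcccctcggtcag
Serpinb2: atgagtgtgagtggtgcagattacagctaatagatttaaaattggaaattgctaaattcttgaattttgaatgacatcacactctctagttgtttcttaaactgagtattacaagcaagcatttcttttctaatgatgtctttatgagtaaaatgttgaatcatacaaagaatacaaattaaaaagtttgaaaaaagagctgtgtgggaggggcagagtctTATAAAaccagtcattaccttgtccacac

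The AP-1 letters stood at positions -154 to -148 of Procr, -69 to -63 of Plaur and, on the other strand, -135 to -129 of F3, counted with the start site as 0. They were found in 3 of the 7 genes with a window and in 5.20% of all 32851 promoter windows of 300 bases, which run on past the start site. The TATA letters stood at -29 to -24 of Serpinb2 and in 13.6% of all windows. In F3 they occurred only past the start site, on the other strand, at 43 to 48. The NF-kB consensus, searched on both strands, was in 8.46% of all windows and in none of the 7 genes. The F7, F10 and F13a1 windows held none of the 3 motifs. These are matches of letters and no binding was measured.

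Levels are CPM, counts set to a common library total, scaled with edgeR's TMM factors. Total counts per library lay between 17527802 and 31458363, at which 3 counts equal 0.0697 to 0.174 CPM, a floor that covers counting error only. All 8 macrophage markers (among them Adgre1, Csf1r and Cd68) had counts in every group. Their summed level was 37906 to 47803 CPM in GM libraries and 20531 to 30287 CPM in M libraries. Neutrophil markers summed to 12.7 to 44.7 CPM in GM and 0.337 to 2.05 CPM in M libraries, and dendritic cell markers to 14.3 to 74.2 and 0.640 to 3.94 CPM. Heart muscle markers summed to 20.1 to 56.1 CPM in the 4 steady state TC libraries and to at most 0.814 CPM in the other 12. In these bulk samples fewer cells of a type and less RNA per cell cannot be told apart.

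F3 was highest upon LPS challenge in both kinds of macrophage. F3 in GM cells was at 2.37 and 1.77 CPM on TC, 4.93 and 4.88 on noTC, 13.4 and 14.4 on TC with LPS and 21.9 and 24.2 on noTC with LPS. F3 in M cells stood at 0.199 and 0.262 CPM on TC, 0.607 and 0.395 on noTC, 9.70 and 11.8 on TC with LPS and 19.9 and 20.4 on noTC with LPS. The libraries of the 8 groups did not overlap. From high to low the order was GM-noTC-LPS, M-noTC-LPS, GM-TC-LPS, M-TC-LPS, GM-noTC, GM-TC, M-noTC and M-TC. Of the neighbours in that order that were compared, the first 2 groups (BH-adjusted p = 0.129) and the last 2 (0.0838) did not differ beyond the test's threshold of 0.05.

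F7 separated the growth factors at every dish and treatment. F7 in GM cells was at 42.8 and 44.6 CPM on TC, 54.9 and 53.0 on noTC, 41.5 and 50.2 on TC with LPS and 52.3 and 57.0 on noTC with LPS. F7 in M cells stood at 0.957 and 1.09 CPM on TC, 1.99 and 2.21 on noTC, 2.71 and 2.44 on TC with LPS and 3.85 and 2.79 on noTC with LPS. The lowest GM library lay above the highest M library, GM-TC overlapped with GM-TC-LPS, and GM-noTC with GM-noTC-LPS. F10, the neighbour of F7 on the same chromosome, showed both the growth factor difference and a rise with LPS. F10 in GM cells was at 134 and 130.4 CPM on TC, 173 and 175 on noTC, 789 and 846 on TC with LPS and 919 and 937 on noTC with LPS. F10 in M cells stood at 4.47 and 4.64 CPM on TC, 9.87 and 8.53 on noTC, 63.3 and 58.3 on TC with LPS and 79.9 and 69.7 on noTC with LPS. No 2 of the 8 groups overlapped for F10, and the M cells given LPS stayed below the GM cells at steady state.

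F13a1 followed the dish, in opposite directions in the 2 kinds of macrophage. F13a1 in GM cells was at 4.90 and 5.36 CPM on TC, 18.4 and 17.6 on noTC, 6.83 and 10.2 on TC with LPS and 29.5 and 29.8 on noTC with LPS. F13a1 in M cells stood at 3.27 and 3.22 CPM on TC, 1.15 and 1.77 on noTC, 3.69 and 3.14 on TC with LPS and 1.49 and 1.60 on noTC with LPS. GM-noTC-LPS was the highest group and the M-noTC groups, with and without LPS, were the lowest and overlapped.

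**Figure D1:**
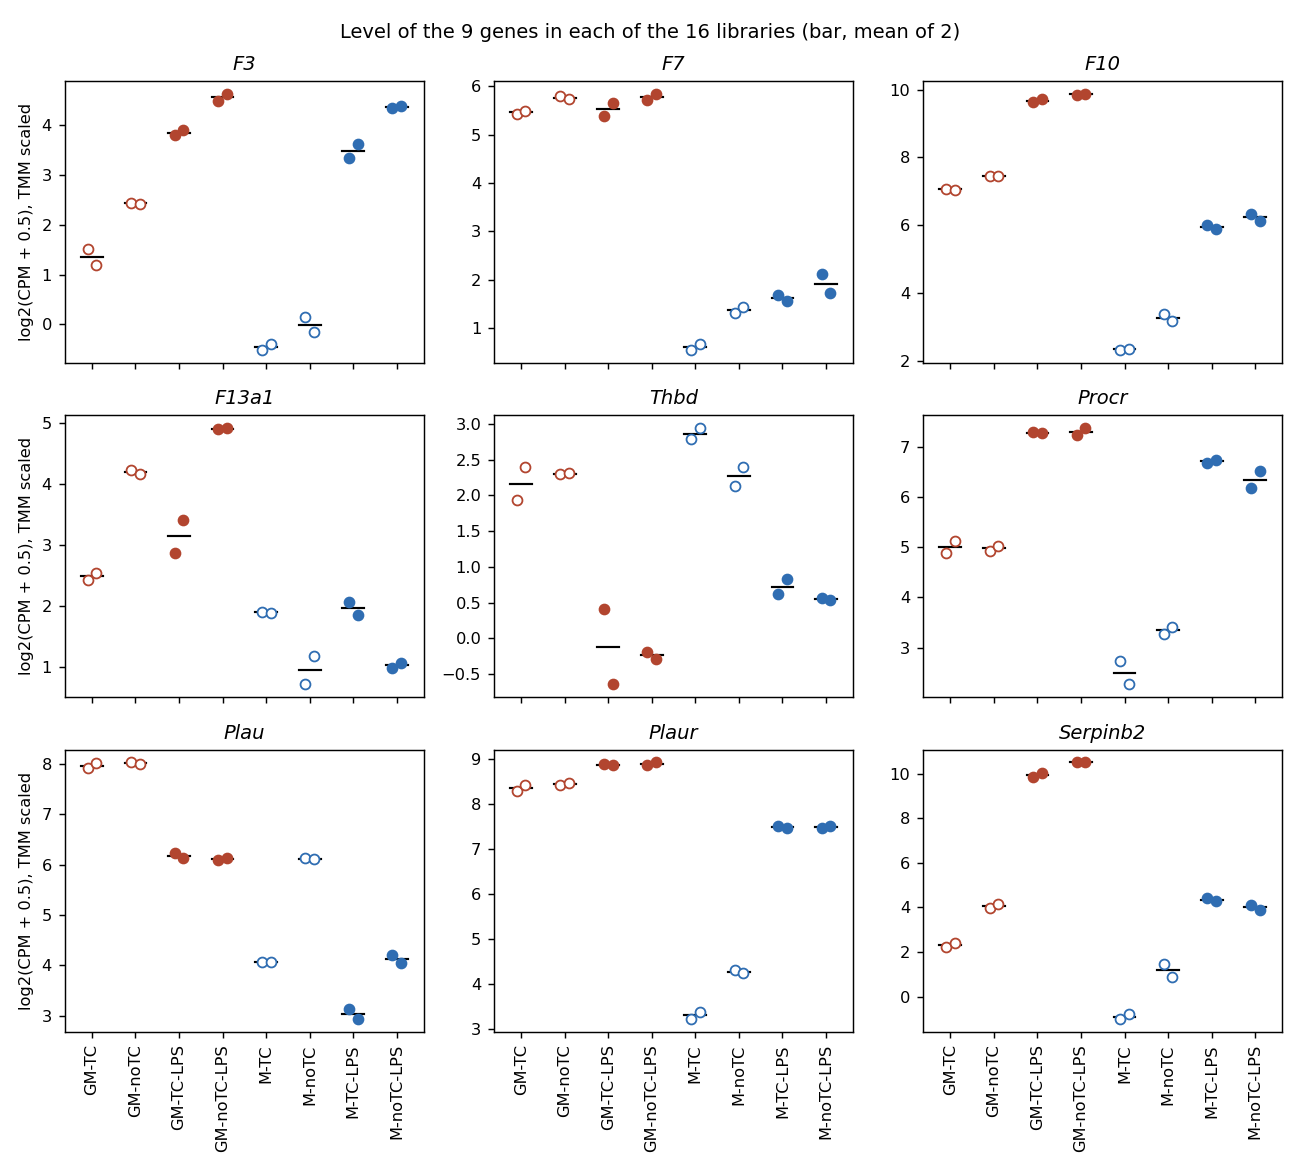
Level of each of the 9 genes as log2(CPM + 0.5), TMM scaled, on the vertical axis, for the 8 groups on the horizontal axis. Each circle is a library, red for GM and blue for M cells, open at steady state and filled with LPS, and bars are means of 2 on this scale. F7 and F10 stood apart by growth factor, F3 and Serpinb2 rose with LPS, and Thbd and Plau fell with LPS.

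Thbd was under 8 CPM in each library and lowest upon LPS challenge. Thbd in GM cells was at 3.33 and 4.75 CPM on TC, 4.4 and 4.47 on noTC, 0.827 and 0.139 on TC with LPS and 0.379 and 0.319 on noTC with LPS. Thbd in M cells stood at 6.38 and 7.18 CPM on TC, 3.88 and 4.79 on noTC, 1.03 and 1.28 on TC with LPS and 0.975 and 0.948 on noTC with LPS. The 8 LPS libraries all lay below the 8 steady state libraries. Procr, the other receptor of the protein C pathway, went the other way. Procr in GM cells was at 29.0 and 34.4 CPM on TC, 29.7 and 32.2 on noTC, 156 and 154 on TC with LPS and 149.5 and 165 on noTC with LPS. Procr in M cells stood at 6.18 and 4.30 CPM on TC, 9.17 and 10.1 on noTC, 101 and 106 on TC with LPS and 71.6 and 90.8 on noTC with LPS. The 2 dishes overlapped in GM cells in both treatments and did not overlap in M cells.

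Plau was highest in GM cells at steady state. Plau in GM cells was at 240.5 and 258 CPM on TC, 261 and 255 on noTC, 74.3 and 69.7 on TC with LPS and 67.7 and 69.8 on noTC with LPS. Plau in M cells stood at 16.3 and 16.2 CPM on TC, 69.5 and 68.3 on noTC, 8.27 and 7.15 on TC with LPS and 17.8 and 16 on noTC with LPS. M-noTC cells at steady state thus held a level within the range of the GM cells given LPS. Plaur was at a high level in all GM groups. Plaur in GM cells was at 315 and 344 CPM on TC, 347 and 354 on noTC, 474 and 469.8 on TC with LPS and 469.6 and 488 on noTC with LPS. Plaur in M cells stood at 8.93 and 9.95 CPM on TC, 19.4 and 18.6 on noTC, 183 and 176 on TC with LPS and 177 and 184 on noTC with LPS. The 2 dishes overlapped after LPS in both kinds of macrophage.

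Serpinb2 had the widest range of the 9 genes. Serpinb2 in GM cells was at 4.24 and 4.79 CPM on TC, 15.2 and 17.3 on noTC, 927 and 1053 on TC with LPS and 1463 and 1462 on noTC with LPS. Serpinb2 in M cells stood at 0 and 0.0748 CPM on TC (from 0 and 2 counts), 2.29 and 1.35 on noTC, 21.0 and 19.0 on TC with LPS and 16.8 and 14.3 on noTC with LPS. Upon LPS challenge the 4 M libraries spanned 14.3 to 21.0 CPM, a range that held both GM-noTC libraries at steady state. Serpinb10, a gene on the same strand that shares exon sequence with Serpinb2 in the GENCODE annotation, had between 0 and 40 counts in a library, against up to 32050 for Serpinb2. The antisense gene Gm30489 overlaps F13a1 in that annotation and was not analysed here. Whether counting used strand is not given in the sources used here, and without strand its reads cannot be told apart from those of F13a1.

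The first comparison asked how the genes responded to LPS in each kind of culture. Tissue factor, factor X, the protein C receptor, the urokinase receptor and PAI-2 were higher upon LPS challenge in all 4 cultures, the urokinase receptor in GM cells not when libraries were scaled by size alone. Urokinase and thrombomodulin were lower in all 4. In each culture 6 genes were higher, 2 were lower and 1 did not pass at an adjusted p under 0.05, but F7 was the gene that did not pass in GM cells and F13a1 in M cells. Among all tested genes LPS called 32.8% higher and 34.2% lower in GM cells on TC, and 33.6% and 34% on noTC. In M cells it called 37.6% higher and 36.4% lower on TC, and 36.4% and 35.9% on noTC. With a fold change above 2 as well, 6 of 9 passed in both GM cultures, against 26% of tested genes on TC and 25.8% on noTC. In M cells 8 passed on TC and 7 on noTC, against 35.8% and 32.2%. The median log2 fold change of the 9 genes was 0.74 and 0.72 in GM cells on TC and noTC, and 3.74 and 3.03 in M cells, and that of all tested genes lay between -0.05 and -0.01. The summed level of 5 endothelial cell markers also moved with LPS, from 9.91 to 13.2 CPM in steady state libraries to 39.0 to 47.0 CPM in GM and 84.7 to 115 CPM in M libraries. Kdr made up most of that sum, Tek, Emcn and Cldn5 had at most 9 counts a group, and Cldn5 was at 0 in all but GM-TC. The sum of 5 dendritic cell markers was 14.3 to 17.9 CPM at steady state and 63.5 to 74.2 CPM after LPS in GM libraries, and 0.640 to 0.952 CPM and 2.32 to 3.94 CPM in M libraries. The sum of 6 heart muscle markers was lower with LPS on TC. In GM-TC it was 20.1 to 41.2 CPM and with LPS at most 0.0464 CPM. In M-TC it was 33.0 to 56.1 CPM and with LPS at most 0.814 CPM. The part of these cell types in the responses was not tested.

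**Figure D2:**
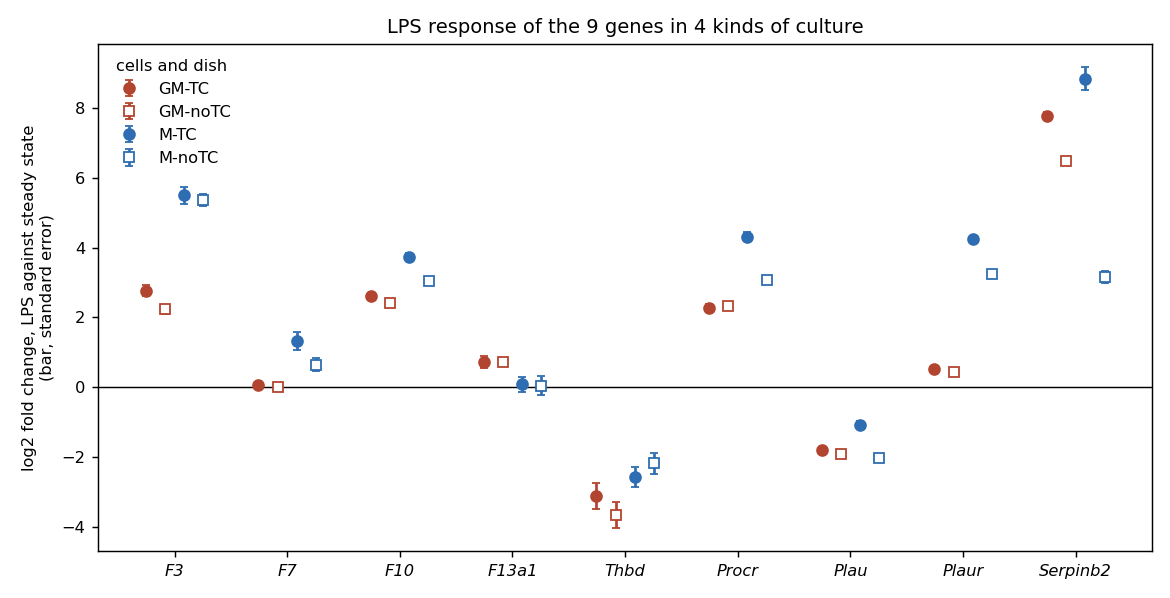
Log2 fold change of LPS against steady state, with its standard error, for each gene in the 4 kinds of culture (red, GM; blue, M; filled circles, TC; open squares, noTC). F3, Procr and Plaur lay higher in M than in GM cells, Plau and Thbd lay below 0 in each culture, and the Serpinb2 value of M-TC rests on 2 counts at steady state.

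Serpinb2 had the largest responses in GM cells, with log2 fold changes of 7.77 ± 0.12 (SE) in GM-TC (adjusted p = 3.27e-23) and 6.49 ± 0.10 in GM-noTC (5.91e-23). Its M-noTC response was 3.16 ± 0.17 (8.83e-14), and 5.94 ± 0.32 once a small share of the mean of other libraries, described with the dish comparison, was subtracted from the noTC libraries at steady state. Against M-TC the ratio of the 753 LPS counts to the 2 counts at steady state, scaled to library size and TMM factor, was 519.7. Its 95% exact binomial interval was 143 to 4299, and the fitted value there depends on the prior count. F3 rose 6.81-fold and 4.70-fold in GM cells on TC and noTC, and 45.2-fold and 41.3-fold in M cells (log2 fold changes of 2.77 ± 0.16, 2.23 ± 0.13, 5.50 ± 0.25 and 5.37 ± 0.18). F10 rose by log2 fold changes of 2.63 ± 0.06, 2.42 ± 0.06, 3.74 ± 0.10 and 3.03 ± 0.08 in the same order. Procr rose by 2.28 ± 0.10, 2.34 ± 0.10, 4.31 ± 0.13 and 3.07 ± 0.12 on the log2 scale. All of these had an adjusted p of at most 8.70e-13.

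Plaur rose 1.43-fold in GM-TC (adjusted p = 1.54e-08) and 1.37-fold in GM-noTC (1.30e-07), where its level was already high, and 19.0-fold in M-TC and 9.51-fold in M-noTC. Plau changed by log2 fold changes of -1.79 ± 0.06 and -1.91 ± 0.06 in GM cells on TC and noTC, and by -1.07 ± 0.10 and -2.03 ± 0.07 in M cells. In the same order Thbd changed by -3.12 ± 0.37, -3.65 ± 0.37, -2.56 ± 0.29 and -2.18 ± 0.30 (adjusted p of at most 1.24e-06). The GM-TC value of Thbd was -4.82 without GM-TC-LPS replicate 1 and -2.30 without GM-TC-LPS replicate 2. F7 in GM cells had log2 fold changes of 0.07 ± 0.08 on TC (0.477) and 0.02 ± 0.08 on noTC (0.852), and in M cells it rose by 1.33 ± 0.26 on TC (7.29e-05) and 0.65 ± 0.19 on noTC (0.00447). F13a1 in GM cells rose by 0.74 ± 0.17 on TC (5.93e-04) and 0.72 ± 0.12 on noTC (2.54e-05), and in M cells it had 0.08 ± 0.21 on TC (0.742) and 0.04 ± 0.27 on noTC (0.911).

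TMM factors were 1.11 to 1.39 in steady state libraries but 0.778 to 0.842 in LPS libraries, and scaling by library size alone moved the median LPS response of all tested genes to -0.53, -0.54, -0.83 and -0.73. Under that scaling F13a1 in GM cells (log2 fold changes of 0.26 and 0.21) and Plaur in GM cells (0.04 and -0.06) did not pass, F7 fell in GM cells (-0.41 and -0.49), F13a1 fell in M cells (-0.74 and -0.68), and F7 in M cells (0.51 and -0.08) did not pass. F13a1 in GM-TC also lost its call without GM-TC-LPS replicate 2 (0.41, adjusted p = 0.0611), and F7 in M-noTC without M-noTC-LPS replicate 1 (0.40, 0.151) and with DESeq2 fitted to the 4 compared libraries (0.0669).

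The second comparison set GM cells against M cells on the same dish and treatment. The authors seeded GM cultures at a higher cell density than M cultures. Growth factor and seeding density therefore cannot be told apart here or in the LPS responses compared between GM and M cells below. Nearly all 9 genes were higher in GM cells, and on TC at steady state the differences of factor VII, factor X, urokinase, its receptor and PAI-2 were the largest of the 9. At steady state on TC, 8 genes were higher in GM and Thbd was lower, where 32.6% of tested genes were called higher and 28.9% lower. On noTC at steady state 8 were higher and Thbd did not pass (31.4% of tested genes higher and 30.7% lower). After LPS on TC, 8 were higher and Thbd was lower (33.9% and 32.9%). After LPS on noTC, 7 were higher, Thbd was lower and F3 did not pass (33.5% and 32.6%). With a fold change above 2, 7 of 9 genes passed on TC and 8 of 9 on noTC at steady state, against 21.8% and 22.2% of tested genes. The comparisons of growth factor share their libraries with those of LPS.

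F7 was 42.5-fold higher in GM-TC than in M-TC and 25.4-fold higher in GM-noTC than in M-noTC (log2 fold changes of 5.41 ± 0.15 and 4.67 ± 0.12). After LPS the differences were 4.15 ± 0.13 on TC and 4.04 ± 0.12 on noTC. F10 was 29.0-fold and 19.0-fold higher at steady state and 13.4-fold and 12.4-fold higher after LPS. Plau was 15.3-fold higher in GM on TC (3.94 ± 0.07) and 3.74-fold higher on noTC (1.90 ± 0.06). Plaur was 34.8-fold and 18.5-fold higher at steady state on TC and noTC, but 2.63-fold and 2.65-fold after LPS. Each of these differences had an adjusted p of at most 1.10e-15.

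Serpinb2 was 9.33-fold higher in GM-noTC than in M-noTC (log2 fold change of 3.22, adjusted p = 5.09e-14), and its log2 fold change there was 5.79 ± 0.32 after the subtraction. It was 49.4-fold higher in GM-TC-LPS than in M-TC-LPS and 93.9-fold higher in GM-noTC-LPS than in M-noTC-LPS. Between GM-TC and M-TC the ratio of 203 to 2 counts, scaled to library size and TMM factor, was 118. Its 95% exact binomial interval was 32.2 to 979. Procr was 6.10-fold and 3.19-fold higher at steady state, and 1.49-fold and 1.93-fold after LPS. F13a1 differed by log2 fold changes of 0.66 ± 0.19 on TC (0.00441) and 3.58 ± 0.17 on noTC (2.92e-14) at steady state, and of 1.32 ± 0.19 and 4.26 ± 0.19 after LPS. The F13a1 difference on TC at steady state was lost with scaling by library size alone (0.35, adjusted p = 0.104) and with DESeq2 fitted to the 4 compared libraries (0.0518).

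F3 was 8.65-fold higher in GM-TC and 10.1-fold higher in GM-noTC at steady state, but after LPS the difference was 1.3-fold on TC (adjusted p = 0.0109) and 1.14-fold on noTC (0.129). The difference of F3 after LPS on TC was lost without GM-TC-LPS replicate 2 (0.0794), without M-TC-LPS replicate 1 (0.171) and with DESeq2 on all libraries (0.0516), or fitted to the 4 compared ones (0.0642). Thbd was the gene that M cells held at the higher level, with log2 fold changes of -0.73 ± 0.22 at steady state on TC (0.00733) and, after LPS, -1.29 ± 0.48 on TC (0.0215) and -1.45 ± 0.52 on noTC (0.0173). At steady state on noTC the value was 0.02 ± 0.22 (0.936). The Thbd calls were lost without GM-TC replicate 1 (0.0681) or M-TC replicate 2 (0.0561) at steady state, without GM-TC-LPS replicate 2 (-0.47, 0.363) or M-TC-LPS replicate 2 (0.103) on TC after LPS, and without GM-noTC-LPS replicate 2 (0.0853), M-noTC-LPS replicate 1 (0.0584) or M-noTC-LPS replicate 2 (0.0518) on noTC after LPS. After LPS they were also lost with DESeq2 fitted to the 4 compared libraries (0.156 on TC and 0.0921 on noTC), and the TC value was -3.0 without GM-TC-LPS replicate 1. Neutrophil, dendritic cell and platelet markers also stood higher in GM libraries, platelet markers at 33.8 to 59.0 CPM against 4.11 to 10.6 CPM in M libraries, and their part in these differences was not tested. Of 9 neutrophil markers, 8 or 9 had counts in each GM group and 4 or 5 in each M group, with Ly6g, Retnlg, Mpo and Elane at 0 in all M groups. All 5 dendritic cell markers had counts in every group.

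The LPS responses themselves differed between the growth factors. On TC, 6 of the 9 genes had a more negative LPS log2 fold change in GM than in M cells and none had a more positive one, where 23.3% of tested genes were called more negative and 17.8% more positive. On noTC, 6 were more negative and Serpinb2 was more positive (19.3% and 16.9%). The median difference of the 9 genes, GM minus M, was -1.11 on TC and -0.63 on noTC, beside -0.04 and -0.02 for all tested genes. For Plaur the difference was -3.73 ± 0.09 on TC (adjusted p = 6.20e-18) and -2.80 ± 0.08 on noTC (1.67e-16). For F3 it was -2.73 ± 0.38 and -3.14 ± 0.25, and for Procr -2.03 ± 0.17 and -0.72 ± 0.15. F10 differed by -1.11 ± 0.12 and -0.62 ± 0.10, and F7 by -1.26 ± 0.27 and -0.63 ± 0.21.

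Plau fell by more in GM than in M cells on TC (difference of -0.72 ± 0.12, adjusted p = 3.02e-05), and on noTC the difference was 0.12 ± 0.09 (0.359). Thbd differed on noTC by -1.47 ± 0.56 (0.0448), a call lost in 7 of the 8 fits that left out 1 library (0.0702 to 0.155) and with scaling by library size alone (0.0791). The F7 difference on noTC was lost with that scaling (0.117) and without GM-noTC-LPS replicate 1 (0.051), M-noTC replicate 1 (0.082) or M-noTC-LPS replicate 1 (0.286). Serpinb2 differed on noTC by 3.33 ± 0.24 (2.88e-10), but by 0.77 (0.404) after the subtraction. The subtracted share came from a dish difference in other genes, so no conclusion is drawn from that loss. On TC the Serpinb2 difference did not pass (0.383), with 2 counts behind M-TC. F13a1 had differences of 0.65 ± 0.27 on TC (0.0581) and 0.68 ± 0.30 on noTC (0.0793). Both passed with no expression filter (0.0216 and 0.0324) and with scaling by library size alone (0.00406 and 0.0184). The noTC difference also passed with edgeR fitted to the compared libraries (0.0330). Without 1 library they ranged from 0.33 to 0.91 on TC and from 0.30 to 0.93 on noTC.

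The third comparison asked what the dish surface changed at steady state. In GM cells on noTC, tissue factor, factors VII and X, the factor XIII subunit and PAI-2 were higher, while thrombomodulin, the protein C receptor, urokinase and its receptor did not pass. These 5 of 9 genes were all higher, where 4.69% of tested genes were called higher and 2.85% lower. In M cells on noTC, 6 of 9 were higher, F13a1 and Thbd were lower and F3 did not pass, against 16.1% of tested genes called higher and 11.1% called lower. With a fold change above 2, 3 of 9 genes passed in GM and 6 of 9 in M cells, against 1.39% and 3.45% of tested genes. After the subtraction the counts were 3 in GM and 2 in M cells, Plau and F13a1, against 1.09% and 3.2%, since F7 (0.96), F10 (0.75) and Plaur (0.91) then lay under 2-fold and Serpinb2 did not pass. The median log2 fold change of the 9 genes was 0.30 in GM and 1.0 in M cells, beside 0 and 0.01 for all tested genes.

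**Figure D3:**
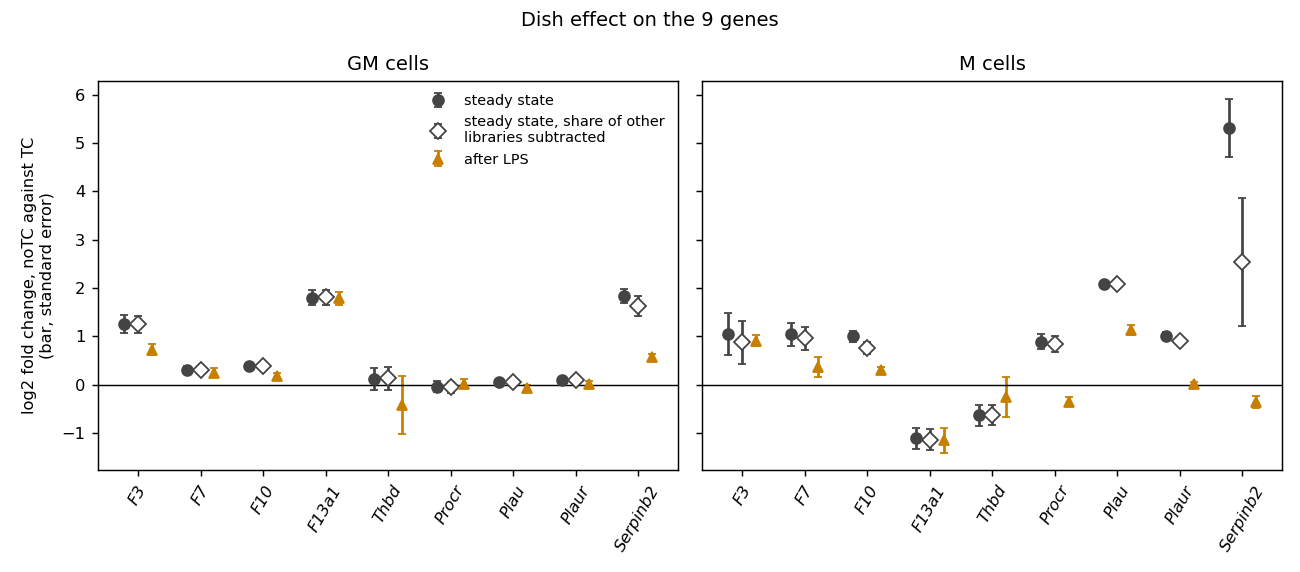
Log2 fold change of noTC against TC, with its standard error, for the 9 genes in GM cells (left) and M cells (right). Circles are steady state, diamonds steady state with a fixed share of the mean of other libraries subtracted from the noTC libraries, and triangles after LPS. F13a1 lay above 0 in GM and below 0 in M cells, Plau lay near 0 in GM and above 0 in M cells, and the fitted Serpinb2 values at steady state in M cells rest on 2 counts in M-TC.

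In GM cells F13a1 was 3.49-fold higher on noTC (log2 fold change of 1.80 ± 0.15, adjusted p = 5.48e-08), Serpinb2 3.58-fold (1.84 ± 0.15, 2.10e-08) and F3 2.40-fold (1.26 ± 0.18, 7.51e-05). F10 was 1.31-fold higher (2.32e-04). F7 was 1.23-fold higher (0.0265), a call that was lost with DESeq2 on all libraries (0.0535), with edgeR (0.0792) or DESeq2 (0.201) fitted to the 4 compared libraries and without GM-TC replicate 1 (0.0508), GM-noTC replicate 1 (0.22) or GM-noTC replicate 2 (0.111). The values of Thbd, Procr, Plau and Plaur lay between -0.04 and 0.12. In M cells Plau was 4.24-fold higher on noTC (2.08 ± 0.07, 1.43e-14). F7, F10 and Plaur were 2.06-fold, 2.0-fold and 2.01-fold higher, and Procr 1.86-fold (0.89 ± 0.16, 1.87e-04). F13a1 differed by -1.11 ± 0.22 (5.03e-04). Thbd differed by -0.64 ± 0.21 (0.0279), a call lost without any 1 of the 4 libraries (0.0502 to 0.202) and with DESeq2 on all libraries (0.0541). F3 had 1.04 ± 0.44 (0.0838).

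The noTC libraries at steady state held a low level of transcripts that were high in the other libraries. This was measured on genes that reached 100 CPM in the mean of 10 other libraries (all but the steady state TC groups and the noTC group in question) yet were below 1 CPM in steady state TC cells, the 9 genes left out. Their median excess of noTC over TC was 0.675% of that mean in GM (15 genes, 0.390% to 0.907%) and 0.587% in M cells (20 genes, 0.0084% to 1.70%). Reads from other libraries and a low level of these transcripts in the noTC cells cannot be told apart here. Serpinb2 in M-noTC had an excess over M-TC of 0.615% of its mean in those 10 libraries. Its ratio of 126 counts to 2, scaled to library size and TMM factor, was 44.9. The 95% exact binomial interval, which covers counting error only, was 12.2 to 375. With the median share subtracted from the noTC libraries the dish difference of Serpinb2 in M cells did not pass (adjusted p = 0.175). The share came from the same dish difference in other genes, so that loss says no more than that its excess lay near their median. In GM cells Serpinb2 had an excess of 3.34% and stayed higher on noTC after subtraction (1.63, 1.90e-05). The excess was 28.9% for F3 in GM cells. In M cells it was 85.6% for Plau, 6.92% for Procr, 5.05% for F7, 4.52% for Plaur and 1.87% for F10. These genes kept their calls with the median share subtracted, and larger shares were not tried. The F10 excess lay near the highest of the 20 genes (1.70%), so no conclusion is drawn from its kept call. The heart muscle markers move with the same comparison, all 6 with counts in both steady state TC groups and Myh6, Actc1, Myl2, Tnnt2 and Mb at 0 in both steady state noTC groups, and their part in it was not tested.

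After LPS the dish differences were fewer. In GM cells F13a1 (1.79 ± 0.14, adjusted p = 4.16e-08), F3 (0.73 ± 0.11, 5.12e-04) and Serpinb2 (0.56 ± 0.08, 1.06e-04) were higher on noTC, 3 of 9 genes where 2.08% of tested genes were called higher and 0.727% lower. With no expression filter 5 of 9 passed, F7 (0.0408) and F10 (0.0308) being added. F10 also passed with edgeR (0.17, adjusted p = 0.0200) or DESeq2 (0.17, 0.0162) fitted to the compared libraries. In M cells F3 (0.91 ± 0.12, 9.47e-06), F10 (0.30 ± 0.07, 0.00339) and Plau (1.13 ± 0.10, 3.53e-08) were higher on noTC, where 10.4% of tested genes were called higher. F13a1 (-1.15 ± 0.26, 0.0024), Procr (-0.35 ± 0.10, 0.0105) and Serpinb2 (-0.36 ± 0.12, 0.0331) were lower there, where 12.9% were called lower. Without M-TC-LPS replicate 2 only F3, F13a1 and Plau passed, and without M-noTC-LPS replicate 1 the F10 (0.111) and Procr (0.257) calls were also lost. The Serpinb2 call was lost without M-TC-LPS replicate 1 (-0.29) and M-noTC-LPS replicate 2 (-0.25) too. It was also lost with scaling by library size alone (-0.28, adjusted p = 0.113) and with DESeq2 fitted to the compared libraries (-0.35, 0.110).

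F13a1 thus differed by dish in the same direction before and after LPS, upward in GM and downward in M cells. A test of whether the LPS response differed by dish called Serpinb2 alone in GM cells, with a smaller rise on noTC (-1.28 ± 0.17, adjusted p = 9.12e-05), where 0.591% of tested genes were called with a more negative response and 0.192% with a more positive one. With the share subtracted that difference was -1.06 and did not pass (0.0752). In M cells 5 of 9 genes had a more negative LPS response on noTC, where 7.48% of tested genes were called more negative and 3.11% more positive. They were Procr (-1.24 ± 0.19, 1.08e-04), Plaur (-1.0 ± 0.10, 5.21e-07), Plau (-0.96 ± 0.13, 2.00e-05), F10 (-0.70 ± 0.13, 0.00152) and Serpinb2. The Serpinb2 difference rests on 2 counts in M-TC and did not pass after subtraction (0.19). The other 4 kept their calls with the median share subtracted, where the F10 value was -0.46. The share came from a dish difference in other genes, so no conclusion is drawn from the Serpinb2 losses in GM and M cells. None is drawn from the kept F10 call, since its excess at steady state lay near the highest of the genes that set the share.

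Of 46 other genes of coagulation, its receptors and inhibitors, fibrinolysis, plasminogen binding and the vitamin K cycle, 26 passed the expression filter. Fibrinogen chains, prothrombin and plasminogen itself (Fga, Fgb, Fgg, F2 and Plg) were among the 20 that did not. At steady state on TC, 18 of the 26 were higher in GM than in M cells and 1 was lower, where 32.6% and 28.9% of tested genes were called. On noTC 17 were higher and none was lower (31.4% and 30.7%). The median GM-minus-M log2 fold change of the 26 was 0.96 on TC and 0.90 on noTC, beside 0.02 and 0 for all tested genes. In GM cells LPS called 10 higher and 3 lower on TC, where 32.8% and 34.2% of tested genes were called, and 6 and 5 on noTC (33.6% and 34%). In M cells it called 9 and 2 on TC (37.6% and 36.4%), and 12 and 1 on noTC (36.4% and 35.9%). The dish at steady state called 3 higher and 1 lower in GM (4.69% and 2.85% of tested genes) and 8 higher and 2 lower in M cells (16.1% and 11.1%).

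Factor V (F5), the cofactor of factor X, followed the same growth factor order as F7 and F10. Its mean level was 22.2 to 41.5 CPM in GM groups and 2.67 to 3.26 CPM in M groups, and GM-noTC was above GM-TC (0.65 ± 0.09, adjusted p = 4.83e-05). The thrombin receptor family gene F2rl2 had 7.04 to 16.5 CPM in GM and 0.171 to 0.584 CPM in M groups. Protein S (Pros1), a cofactor of the protein C pathway, had 110.4 to 127 CPM in GM and 33.7 to 35.7 CPM in M groups. Tissue factor pathway inhibitor (Tfpi), which blocks the F3 and F7 complex, had 18.7 to 22.9 CPM in GM and 12.1 to 13.9 CPM in M groups, and no LPS call in the 4 cultures (adjusted p of 0.0923 to 0.973). Annexin A2 (Anxa2), a plasminogen-binding protein, rose with LPS in all 4 cultures, by 0.48 to 0.88 on the log2 scale. F5 and Anxa2 each overlap an antisense gene in the GENCODE annotation (Gm16548 and Gm16144). The annexin partner S100a10 rose in M-TC (0.75 ± 0.07) and M-noTC (0.80 ± 0.06) and had values of 0.04 and 0.05 in GM cells. These rises of Anxa2 and S100a10 hold under TMM scaling and were not tested with library size alone. That scaling moved the median LPS response of all tested genes by a like amount, to -0.53, -0.54, -0.83 and -0.73.

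**Figure D4:**
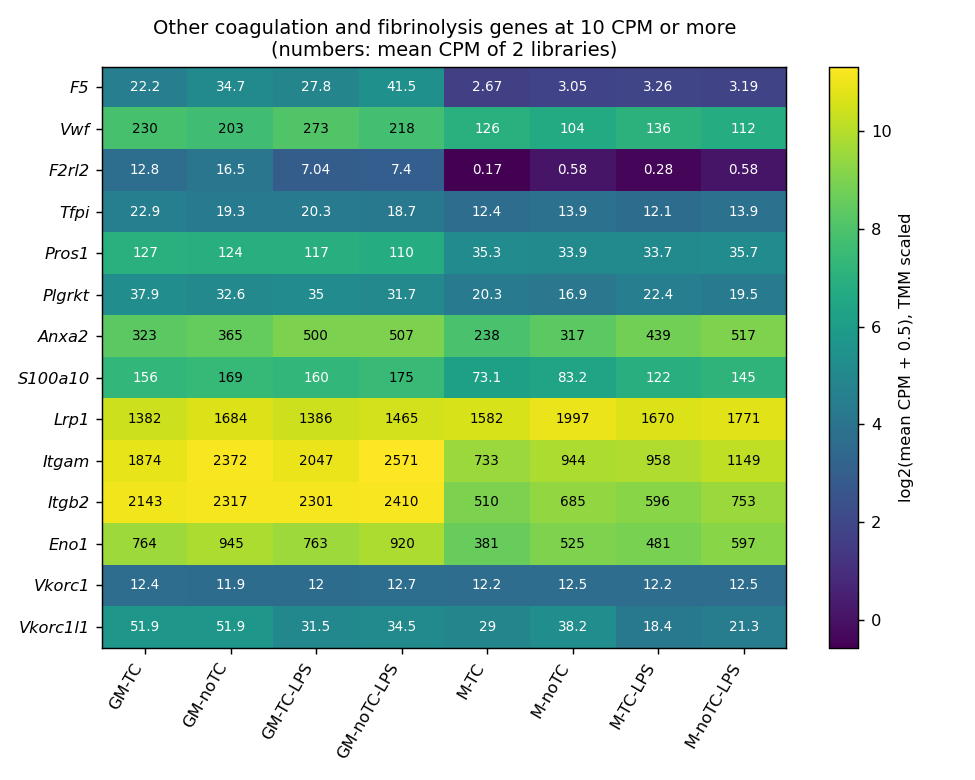
Mean TMM-scaled CPM of 2 libraries (numbers) for 14 other pathway genes that reached 10 CPM in a group, in the 8 groups, with colour as log2(mean CPM + 0.5). F5 and F2rl2 were higher in each GM group than in any M group.

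Over the 16 libraries, the genes with the pattern most like each of the 9, by Pearson r of log2(CPM + 0.5) among 11725 genes, were these, with r given for the closest. For F3 they were Zfp654 (0.985), Dock10 and Tarm1, and for F7 Selplg (0.997), Alas1 and Fgr. F10 was closest to Olr1 (0.996), Axl and Inhba, and F13a1 to Klk1b9 (0.938), Slc16a9 and Stc2. Thbd was closest to Slc25a45 (0.977), Paox and Tmem273, and Procr to Mt2 (0.995) and Hcar2. Plau was closest to Fgfr1 (0.994), Olfm1 and Slc1a5, Plaur to Gsap (0.995), Id2 and Coq10b, and Serpinb2 to Adora2b (0.990), Ptx3 and Kpna1. None of the 9 genes was among the 3 closest to another of them. The libraries of a group share their culture conditions, and the values describe these 16 libraries.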

How the data were processed

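RNA-seq was done with oligo(dT)-selected RNA of 16 libraries, 2 for each of 8 groups assigned from the labels. The authors aligned reads with HISAT2 and quantified genes with RSEM. The deposited values are expected counts per gene, without normalization, and the submitters' processing notes also name fastp 0.18.0, Bowtie2 2.2.8 and StringTie 1.3.1. The genome build and annotation are not given in the sources used here. Expected counts were rounded to whole counts, since 6.56% to 8.19% of values per library were not whole. Total counts lay between 17527802 and 31458363.

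A single quasi-likelihood fit over 8 groups (edgeR 4.0.16, R 4.3.3) used edgeR's expression filter by group, TMM factors and no replicate block, with two-sided tests and Benjamini-Hochberg adjustment over 12514 genes. Genes were called at an adjusted p under 0.05. Fold changes of Serpinb2 against M-TC are given as count ratios with exact binomial intervals. These intervals pool the libraries of a group and cover counting error only, not the spread between libraries. Fitted values that rest on M-TC depend on the prior count. All 9 genes are reported, other pathway genes where a group mean reached 10 CPM, and the 3 most correlated genes of each. A pathway gene and a correlated gene of that rule are not reported here, and the pathway gene is left out of the counts and the plot. The members and gene lists were chosen with earlier results of these data known. Replicates differed by more than sampling noise in all 8 groups (chi-square per degree of freedom of 1.92 to 12.9).

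Alternatives were DESeq2 1.42.0 or its size factors, library size only, no filter, the libraries of the comparison alone, a replicate block, subtraction of a share of the mean of other libraries from the noTC libraries at steady state, and leaving out each library. In simulated counts for LPS in GM-TC, on 12140 genes, edgeR recovered 71 of 89 genes changed by a log2 fold change of 1. It recovered 101 of 111 changed by 2, with 16 unchanged genes called. Few genes were changed, in both directions, so the simulation does not address the LPS shift in scaling.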

Additional observations from a re-analysis of the deposited data

Results flagged for a closer look

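Each value here is a difference between 2 LPS responses, in log2, that passed the test of that difference (edgeR, Benjamini-Hochberg adjusted p under 0.05). The first kind is GM minus M on the same dish. On TC these were F3 (-2.73), F7 (-1.26), F10 (-1.11), Procr (-2.03), Plau (-0.72) and Plaur (-3.73). On noTC these were F3 (-3.14), F7 (-0.63), F10 (-0.62), Thbd (-1.47), Procr (-0.72), Plaur (-2.80) and Serpinb2 (3.33). The second kind is noTC minus TC for the same growth factor. In GM cells it was Serpinb2 (-1.28). In M cells these were F10 (-0.70), Procr (-1.24), Plau (-0.96), Plaur (-0.997) and Serpinb2 (-5.68). The last value is fitted on 2 counts in M-TC and was -8.73 without M-TC replicate 2 and -4.80 without M-TC replicate 1. A share of the mean of other libraries was also subtracted from the noTC libraries at steady state. The Serpinb2 differences were then 0.77 (GM minus M on noTC), -1.06 (dish, GM) and, on 2 counts, -2.90 (dish, M). None of the 3 passed, and no conclusion is drawn from that, since the share came from a dish difference in other genes.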

How the results depend on the processing

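Of 107 called log2 fold changes of single genes, 88 kept their direction and call under every alternative other than leaving out a library, and 94 in every fit without 1 library. Without 1 library no called value changed direction, and a group left with 1 library is assumed to vary like the others. With no expression filter 5 of the 9 genes were called for the dish in GM after LPS, and with the share of the mean of other libraries subtracted 0 were called for the difference of LPS responses between dishes in GM. Between 3 and 5 were called for the dish in M after LPS when 1 library was left out. Scaling by library size alone reversed the LPS values of F7 in GM-TC (-0.41), GM-noTC (-0.49) and M-noTC (-0.075), of F13a1 in M-TC (-0.74) and M-noTC (-0.68) and of Plaur in GM-noTC (-0.059), and the growth factor value of Thbd on noTC at steady state (-0.27). That scaling takes no account of the LPS shift in the median of all genes. The Plaur dish value in M after LPS was -0.013 with DESeq2 size factors and -0.013 with DESeq2 on all libraries, and the Thbd value on noTC was -0.00087 with no filter. The cause of these was not tested. Uncalled values changed sign when 1 library was left out. The LPS values ranged from -0.078 to 0.20 for F7 in GM-TC, -0.046 to 0.082 for F7 in GM-noTC, -0.048 to 0.19 for F13a1 in M-TC and -0.18 to 0.44 for F13a1 in M-noTC. The dish values ranged in GM at steady state from -0.10 to 0.41 for Thbd and -0.15 to 0.10 for Procr. After LPS in GM they ranged from -1.23 to 1.29 for Thbd, -0.050 to 0.091 for Procr and -0.0060 to 0.052 for Plaur, and in M from -0.021 to 0.038 for Plaur. The Thbd growth factor value on noTC at steady state ranged from -0.12 to 0.18.

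With a replicate block all 129 single values kept direction and call, and the counts of genes called were the same in all 16 tests, for example 8 for LPS in GM-TC. Libraries with the same number did not deviate together (r between -0.06 and 0.04 over 12 comparisons), so the numbers were not taken as pairs. Depth limits the values of Thbd after LPS, of F3 in M cells at steady state and of Serpinb2 in M-TC, which rest on 2 to 43 counts a group.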
